A study of Mus musculus with 6 samples.

Results

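The respiratory chain genes of mouse Kupffer cell preparations were followed here in 82 of the 56691 genes of the deposited table. A gene was taken as a member when its symbol named a subunit of complex I (Ndufa, Ndufb, Ndufc, Ndufs or Ndufv with a number), complex II (Sdha to Sdhd), complex III (Uqcr) or complex IV (Cox4 to Cox8), or a protein encoded by mitochondrial DNA (mt-Nd, mt-Co, mt-Atp or mt-Cytb), and its mean over the 6 libraries reached 0.5 FPKM. FPKM counts fragments per kilobase of exon, scaled to the counts assigned to genes. The names matched 92 rows, 10 of which lay under the level floor, leaving 69 nuclear and 13 mitochondrially encoded members. The rule itself uses names and the mean level. Just inside the floor stood Ndufs5-ps at 0.503, Cox6b2 at 0.532 and Cox7c-ps1 at 0.918 FPKM, and just outside it Ndufa4l2 at 0.435, Ndufb4c at 0.377 and Cox4i2 at 0.352 FPKM.

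All 6 libraries came from Kupffer cells, which are macrophages residing in the liver sinusoids, of Vil1Cre-Myd88fl/fl mice, and the comparison asks what serotonin (5-HT) changes in them. The 3 untreated and the 3 5-HT treated libraries thus share the floxed Myd88 allele and a Cre driver of the intestinal epithelium, and names of untreated libraries start with KO. Age, dose, treatment schedule and the number of animals per library were not stated in the sources used here, so p-values measure the spread between libraries, which may be technical. Below, values per library are listed by replicate number within each group. Libraries held between 15390956 and 19050039 counts.

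The respiratory chain passes electrons from NADH (at complex I) and succinate (at complex II) through complex III to oxygen at complex IV, and the proton gradient it builds drives ATP synthase. Its subunits come from separate genomes: most are transcribed in the nucleus and imported, while a small set of complex I, III, IV and ATP synthase subunits is transcribed inside the mitochondrion from a circular genome as long RNAs that are cut into single messages. In macrophages the balance between respiration and glycolysis is known to shift with inflammatory activation.

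The mitochondrial genome has near-identical copies in nuclear DNA. Shown first are stretches of 2 such copies beside their mitochondrial genes, because reads from them can match more than one place. They are from GENCODE M21 (GRCm38), and capitals mark the bases that differ between gene and copy. The first pair is the start of mt-Co2, subunit 2 of cytochrome c oxidase (chrM:7013-7102, plus strand), and the start of Gm28661, annotated as an unprocessed pseudogene (chr1:24615476-24615565, minus strand), which are identical here. The second pair is bases 1054 to 1143 of mt-Co1, the catalytic subunit (chrM:6381-6470, plus strand), and the start of Gm29216 (chr1:24616108-24616197, minus strand).
mt-Co2: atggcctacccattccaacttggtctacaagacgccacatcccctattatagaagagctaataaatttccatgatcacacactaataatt
Gm28661: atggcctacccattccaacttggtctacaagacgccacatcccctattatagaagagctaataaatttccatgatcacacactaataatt
mt-Co1: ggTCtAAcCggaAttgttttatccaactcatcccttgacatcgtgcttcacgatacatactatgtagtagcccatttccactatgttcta
Gm29216: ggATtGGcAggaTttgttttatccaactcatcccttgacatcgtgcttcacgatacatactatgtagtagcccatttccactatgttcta
mt-Co1 and Gm29216 were compared without gaps. The differing bases, counted from the first base of mt-Co1 and with its base first, were T1056A, C1057T, A1059G, A1060G, C1062A and A1066T, all 6 in the stretch shown. The compared part covers 492 of the 1545 bases of mt-Co1 (31.8%), and its longest identical run is 479 bases. All 6 differences lie before that run, at the start of the annotated copy. Whether these first bases belong to the copied sequence was not tested.

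The mitochondrially encoded members fell into levels about 2 orders of magnitude apart. On mean FPKM over the 6 libraries, mt-Co1 was highest with 9185, followed by mt-Cytb (cytochrome b of complex III) with 5170 and the complex I subunits mt-Nd1 with 3645, mt-Nd2 with 2811, mt-Nd4 with 1751, mt-Nd5 with 1119 and mt-Nd6 with 915. The other 6 lay far lower: mt-Co2 at 97.8, mt-Atp6 at 54.7, mt-Co3 at 46.3, mt-Atp8 at 9.26, mt-Nd4l at 7.91 and mt-Nd3 at 5.63 FPKM. Apart from mt-Atp8, these are the genes whose sequence is almost wholly present in nuclear genes as well. Of all 50-base windows of mt-Co2, 100% also occur in another annotated gene. The value was 99.86% for mt-Co3, 99.53% for mt-Atp6, 98.79% for mt-Nd4l and 97.99% for mt-Nd3. Between these and the rest stood mt-Nd4 with 62.23% and mt-Co1 with 51.14%, while mt-Nd2 had 8.19% and mt-Nd5 7.61%, and mt-Nd1, mt-Nd6 and mt-Cytb had none. mt-Atp8 also had none and was nevertheless low. It lies in the 233 chrM bases from 7694 to 7926 and into mt-Atp6, and on chromosome 1 the annotated copies of mt-Co2 and mt-Atp6 leave a gap of the same 233 bases (chr1:24614652-24614884) whose sequence was not analysed here.

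The copies on chromosome 1 received counts of their own. Summed over the 6 libraries, Gm10925, whose 678 bases match mt-Atp6 without a mismatch, had 1.582 counts for each count of mt-Atp6. The ratio was 0.962 for Gm10222 against mt-Nd4l, 0.748 for Gm28437 against mt-Co3, 0.719 for Gm28438 against mt-Nd3 and 0.452 for Gm28661 against mt-Co2. For Gm28439, identical to the first 876 of the 1378 bases of mt-Nd4, the ratio was 0.007, and for Gm29216 against mt-Co1 it was 0.001. The handling of reads with several equal positions was not stated in the sources used here, and the part of these copies in the levels was not tested. The order of the 13 deposited levels is therefore not given as an order of abundance.

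The genes of ATP synthase subunits 8 and 6 overlap on the mitochondrial genome by 43 bases. These are shown in capitals at the end of mt-Atp8 (chrM:7917-7969) and at the start of mt-Atp6 (chrM:7927-7979), both on the plus strand.
mt-Atp8 end: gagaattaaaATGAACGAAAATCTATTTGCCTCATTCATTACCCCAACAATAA
mt-Atp6 start: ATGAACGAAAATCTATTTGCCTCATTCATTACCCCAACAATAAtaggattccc
In all, 10 of the 13 mitochondrially encoded members and 22 of the 69 nuclear members share exonic bases with another annotated gene, and use of strand in counting was not stated in the sources used here.

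**Figure D1:**
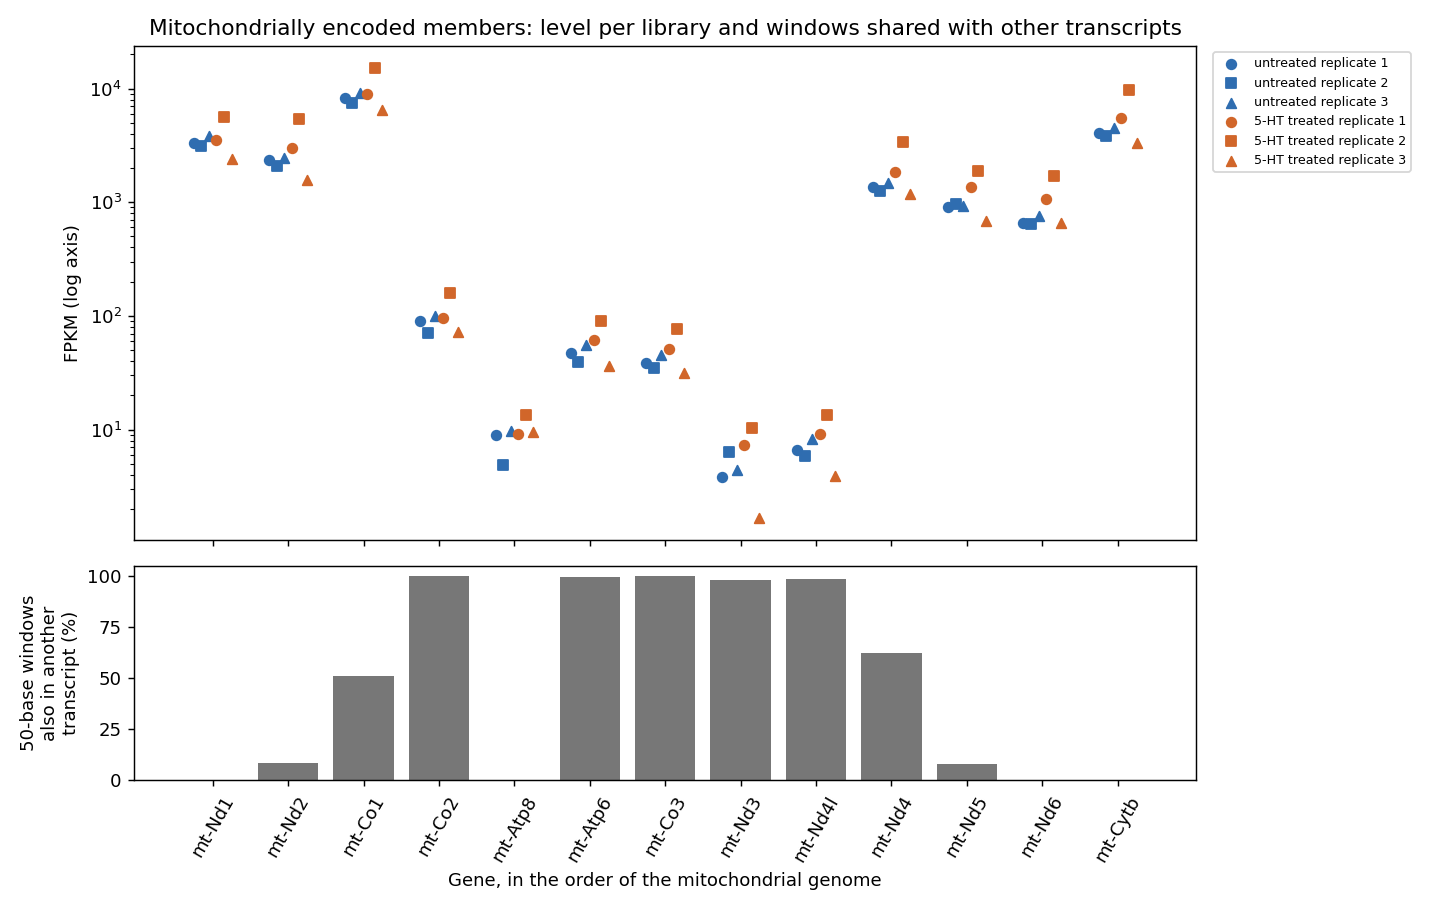
FPKM of the 13 mitochondrially encoded members in each library on a log axis, in the order of the mitochondrial genome, above the percentage of each gene's 50-base windows that also occur in another annotated gene. The 5 genes with 97.99% to 100% of windows shared, and mt-Atp8 with none, sit at or below 158 FPKM in every library, and 5-HT treated replicate 2 is the highest library for each of the 13 genes.

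With 5-HT, all 13 mitochondrially encoded members had a log2 change above 0 (47.7% of all genes did), with a median of 0.43, and none passed the test across all genes. The range was from 0.16 for mt-Nd1 to 0.73 for mt-Nd6. Over all 16641 genes tested, 757 were called higher (4.55%) and 531 lower (3.19%), together 7.74%, by edgeR's quasi-likelihood test at a Benjamini-Hochberg adjusted p under 0.05, and the median log2 change was -0.02. Of the 13, 1 had an unadjusted p under 0.05 by edgeR (12.7% of all genes did so with a higher level), and DESeq2 called that same 1, mt-Nd6. Over all genes, DESeq2 called 1150 of 16948 higher.

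A single library carried most of this shift. mt-Co1 stood at 8223, 7455 and 9064 FPKM untreated and at 8886, 15063 and 6420 FPKM treated. The treated libraries thus lay within, above and below the untreated range, and the log2 change of 0.30 (SE 0.29) had an edgeR adjusted p of 0.595. mt-Cytb gave 4075, 3806 and 4528 FPKM untreated and 5502, 9794 and 3316 FPKM treated, with the same order of the treated libraries (log2 0.59, SE 0.35, edgeR adjusted p = 0.354). 5-HT treated replicate 2 was the highest of the 6 libraries for 13 of 13 genes and 5-HT treated replicate 3 the lowest for 10 of 13, untreated replicate 2 being the lowest for the other 3. No member had groups that did not overlap, against 15.4% of all genes for treated above untreated. Without 5-HT treated replicate 2 the median log2 change was 0.05 and 7 of 13 genes lay above 0. Without 5-HT treated replicate 3 it was 0.69, and mt-Nd5 and mt-Nd6 were called higher (edgeR adjusted p = 0.0296 and 0.0377). That fit called 663 of 17294 genes higher.

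mt-Nd6, the complex I subunit encoded on the strand opposite to that of the other 12 proteins (chrM:13552-14070, minus strand), had the smallest p of the mitochondrially encoded members. It measured 656, 648 and 758 FPKM untreated and 1067, 1702 and 657 FPKM treated. Replicates 1 and 2 of the treated group lay above all untreated libraries and replicate 3 fell among them. The log2 change was 0.73 (SE 0.30, edgeR adjusted p = 0.193; DESeq2 adjusted p = 0.0473). mt-Nd5, another complex I subunit, whose 3′ end overlaps that of mt-Nd6, had 909, 961 and 925 FPKM untreated and 1357, 1879 and 681 FPKM treated (log2 0.49, SE 0.31, edgeR adjusted p = 0.394). Without strand, reads over this overlap and reads from RNA antisense to mt-Nd6 cannot be assigned to either gene.

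The other complex I subunits followed the same order of libraries. mt-Nd1 went from 3442 ± 387 to 3847 ± 1640 FPKM (SD, n = 3 each), and mt-Nd2 from 2296 ± 177 to 3327 ± 1930. mt-Nd4 went from 1359 ± 113 to 2144 ± 1122 FPKM, with a log2 change of 0.66 (SE 0.34, edgeR adjusted p = 0.283). In each of these genes the SD of the treated group was more than 4 times that of the untreated group. The low-count members mt-Nd3 and mt-Nd4l had log2 changes of 0.41 (SE 0.58) and 0.34 (SE 0.44), and mt-Co2, mt-Co3, mt-Atp6 and mt-Atp8 lay between 0.33 and 0.44.

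Set against mt-Co1 in the same library, some mitochondrial messages had ratios whose groups did not overlap, though none passed a test. Of their 50-base windows, mt-Co1 shares 51.14% and mt-Nd4 62.23% with other annotated genes, and the part of this in the ratios was not tested. mt-Nd6 amounted to 7.98%, 8.69% and 8.36% of the FPKM of mt-Co1 untreated and to 12.01%, 11.3% and 10.2% treated. Every treated library lay above every untreated one for this ratio, including replicate 3, whose mt-Nd6 level itself was within the untreated range. mt-Nd4 behaved likewise, with 16.4%, 16.8% and 16.3% untreated and 20.9%, 22.5% and 18.6% treated. mt-Cytb was at 49.6%, 51.0% and 49.95% untreated and at 61.9%, 65.0% and 51.7% treated, the last of these only just above the untreated values. mt-Nd1 went the other way, from 40.7%, 41.7% and 42.7% to 39.7%, 37.3% and 37.2%. These were 4 of 12 ratios to mt-Co1, and among all 78 ratios between pairs of the 13 genes the groups did not overlap in 18 (23.1%). Each of the 4 had an exact two-sided permutation p of 0.1, the smallest that 3 libraries against 3 allow, and 0.3 after Benjamini-Hochberg adjustment over the 12 ratios. The genes with higher ratios lie towards the end of the mitochondrial genome and mt-Nd1 at its beginning, but mt-Nd5, between mt-Nd4 and mt-Nd6, overlapped between groups at 11.1%, 12.9% and 10.2% against 15.3%, 12.5% and 10.6%. The ratios of the low-count mt-Nd3 and mt-Nd4l, which lie just before mt-Nd4, overlapped as well.

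The nuclear members moved the other way. Their median change was smaller in size than the mitochondrial one in the fit to all libraries, but not without 5-HT treated replicate 2. Of the 65 nuclear members tested, 62 had a log2 change below 0 with 5-HT, where 52.3% of all genes tested did, and the median was -0.21. None passed the edgeR test across all genes, the smallest adjusted p being 0.0567. Unadjusted, 15 had an edgeR p under 0.05, all of them lower with 5-HT (11.5% of all genes), and the treated libraries lay wholly below the untreated ones in 19 members (14.3% of all genes). DESeq2 called 2 lower, Ndufc2 and Uqcrq, and over all genes 955 of 16948. Among the 3001 tested genes whose mean FPKM lay between the quartiles of the nuclear members, 48.65% were below 0 and the median was 0.01. Counts of 4 nuclear members, Cox7c-ps1, Cox6c2, Ndufs5-ps and Ndufs6b, were too low to be tested, and they are in none of these numbers. In such bulk samples, fewer cells of a type and less RNA per cell cannot be told apart.

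**Figure D2:**
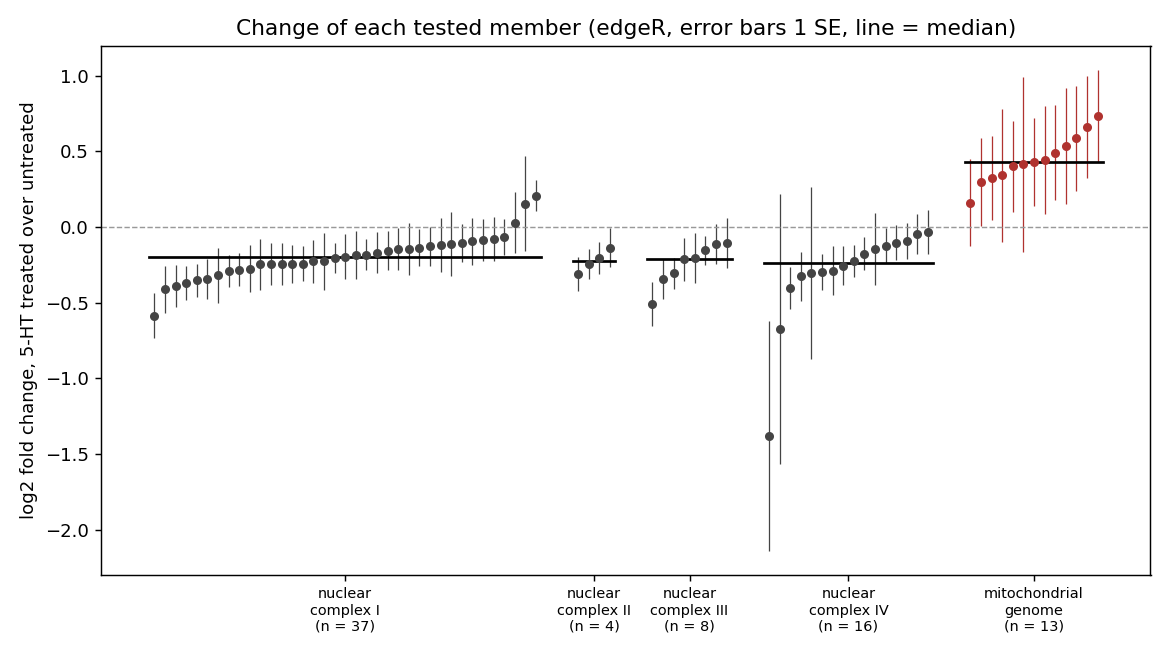
The edgeR log2 fold change of each tested member, 5-HT treated over untreated, with 1 SE, sorted within nuclear complexes I to IV and the mitochondrial genome; black lines are medians. Nuclear members sit mostly below 0, with medians of -0.19, -0.22, -0.21 and -0.24 for complexes I to IV, and the 13 mitochondrially encoded members sit above 0 with wider errors and a median of 0.43.

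Complex I takes electrons from NADH, and 37 of the tested nuclear members were counted under it, 34 of them below 0 (median -0.19). The 37 include Ndufa12-ps and Ndufb1, a row that GENCODE M21 types as a long non-coding RNA. Ndufc2, an accessory subunit of the membrane arm (chromosome 7 from 97400003 to 97407802, plus strand), had the smallest p of all members. It stood at 42.1, 33.5 and 42.4 FPKM untreated and at 22.7, 28.6 and 26.9 FPKM treated. The groups did not overlap, and untreated replicate 2 was the nearest to the treated ones. The log2 change was -0.59 (SE 0.15, edgeR adjusted p = 0.0567), and it passed the threshold in 9 of 18 alternative fits, DESeq2 included (adjusted p = 0.0167). Ndufa8, an accessory subunit imported into the intermembrane space, had 63.9, 45.98 and 60.3 FPKM untreated and 39.97, 39.8 and 47.6 FPKM treated, with 1 treated library above untreated replicate 2 (log2 -0.41, SE 0.15, edgeR adjusted p = 0.156). The 7 subunits of the catalytic core that were tested had a median of -0.18. The 30 accessory members, Ndufa12-ps and Ndufb1 among them, had one of -0.21. Among the nuclear members above 0 were Ndufa12-ps, a pseudogene by its symbol (log2 0.15, SE 0.31), which shares windows with Ndufa12, and Ndufc1 (log2 0.03, SE 0.20).

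Complex II, succinate dehydrogenase, is the member of the chain with no mitochondrially encoded subunit, and all 4 of its genes were below 0 (median -0.22). Sdha, the flavoprotein that oxidises succinate, was at 64.2, 52.1 and 63.7 FPKM untreated and at 47.5, 48.2 and 49.1 FPKM treated. The treated libraries lay close together and below all untreated ones (log2 -0.31, SE 0.11, edgeR adjusted p = 0.149). The membrane anchor Sdhc also had groups that did not overlap, at 22.7, 19.8 and 23.3 against 19, 17.8 and 18.7 FPKM (log2 -0.24, SE 0.10, edgeR adjusted p = 0.186). The iron-sulfur subunit Sdhb and the anchor Sdhd had log2 changes of -0.14 and -0.20.

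In complex III, which passes electrons from ubiquinol to cytochrome c, all 8 nuclear members were below 0 (median -0.21). Uqcrq, a small subunit next to cytochrome b, gave 15.8, 12.1 and 12.4 FPKM untreated and 9.77, 8.59 and 9.84 FPKM treated. No treated library reached the lowest untreated one (log2 -0.51, SE 0.14, edgeR adjusted p = 0.0772; DESeq2 adjusted p = 0.0478). Uqcrb, the most abundant of the complex III members on deposited FPKM, overlapped between groups at 73.9, 57.2 and 85.3 against 61.7, 56.6 and 68.7 FPKM (log2 -0.21, SE 0.16, edgeR adjusted p = 0.501).

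In complex IV, cytochrome c oxidase, the 16 nuclear members tested were all below 0 (median -0.24), and in 3 (18.75%, against 14.3% of all genes tested) the treated libraries lay below all untreated ones without overlap. Cox6b1, which lies on the intermembrane side and was the most abundant nuclear member on deposited FPKM, had 96.9, 86.6 and 104 FPKM untreated and 83.8, 77.0 and 84.5 FPKM treated. The groups did not overlap, with untreated replicate 2 again the nearest (log2 -0.22, SE 0.10, edgeR adjusted p = 0.241). Cox6c gave 18.2, 13.99 and 18.97 FPKM untreated and 13.8, 11.9 and 12.9 FPKM treated (log2 -0.40, SE 0.14, edgeR adjusted p = 0.127), and Cox5b, which binds zinc, gave 27.4, 21.3 and 25.4 against 20.07, 20.02 and 20.02 FPKM (log2 -0.30, SE 0.12, edgeR adjusted p = 0.179). In both, untreated replicate 2 stood nearest to the treated libraries. Cox7b had a log2 change of -0.32 and Cox8a of -0.29, while Cox4i1 (-0.18), Cox7a2 (-0.12), Cox7c (-0.10), Cox7a2l (-0.09), Cox6a1 (-0.05) and Cox5a (-0.03) lay closer to 0. Ndufa4, named for complex I but found in complex IV, had a log2 change of -0.26 (SE 0.13, edgeR adjusted p = 0.276).

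Several complex IV subunits have a partner used in heart and skeletal muscle, lung or testis, and the widely expressed form was the abundant one here. On mean FPKM over the 6 libraries, Cox6a1 was 32.9 times Cox6a2, Cox7a2 was 29.3 times Cox7a1, Cox6b1 was 167 times Cox6b2 and Cox4i1 was 207 times Cox4i2. Ndufa4 was 69.95 times Ndufa4l2, a gene known to respond to hypoxia. On the length of 1 coding transcript these 5 ratios were 40.4, 38.04, 67.5, 397 and 182 in the same order. The muscle form Cox6a2 gave 2.10, 3.47 and 1.78 FPKM untreated and 0.740, 2.01 and 0.0900 FPKM treated, with overlapping groups (log2 -1.38, SE 0.76, edgeR adjusted p = 0.320). Markers of muscle (Ckm, Myh7, Myh6, Myl2, Tnnt2, Mb and Acta1) summed to at most 0.390 FPKM in any library. Cox6a2 shares 70 of its 680 exonic bases with Itgad, a leukocyte integrin gene on the opposite strand that stood at 0.520 FPKM or less in every library.

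**Figure D3:**
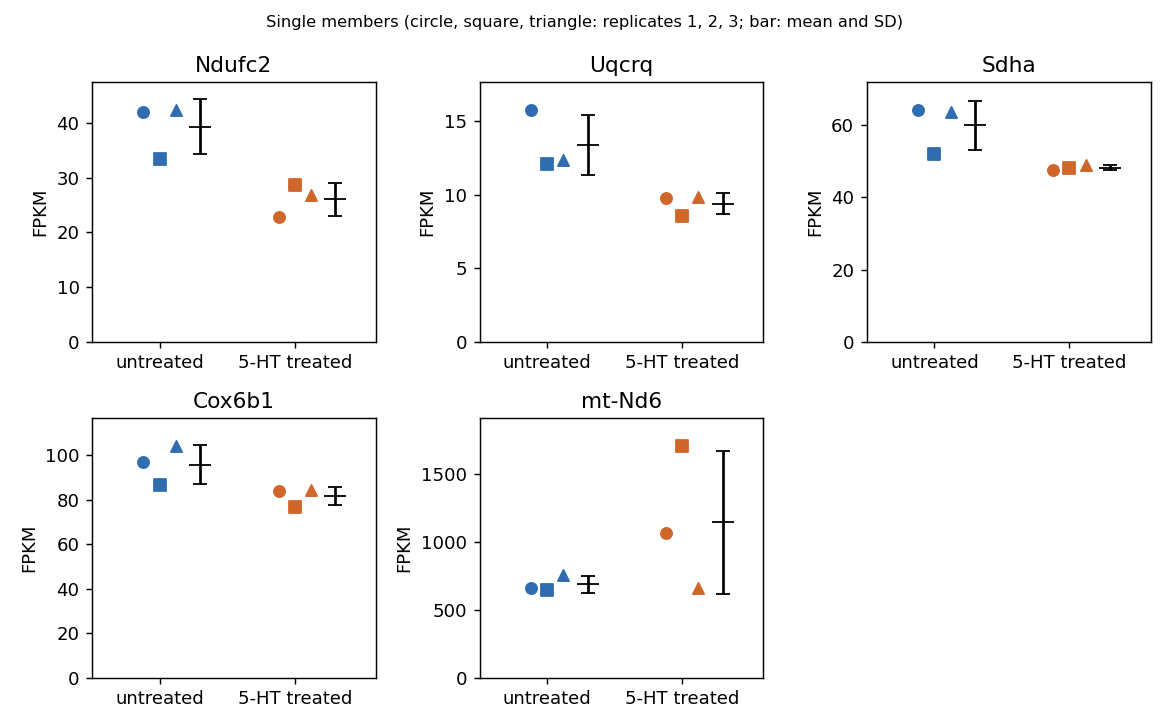
FPKM of 4 nuclear members and of mt-Nd6 in each library, with the group mean and SD (n = 3 each); circles, squares and triangles are replicates 1, 2 and 3. Ndufc2, Uqcrq, Sdha and Cox6b1 lie lower in every treated library than in any untreated one, and mt-Nd6 spreads from 657 to 1702 FPKM in the treated group.

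On the nuclear members, untreated replicate 2 stood closer to the treated group than the other untreated libraries did. It was the lowest of the 3 untreated libraries in 56 of the 65 tested nuclear members. It was also the lowest untreated library in the summed markers of Kupffer cells, hepatocytes, stellate cells, neutrophils, erythroid cells and T and NK cells, given further on with the other cell types, and the part of this in the members' values was not tested. For Kupffer cells and neutrophils, whose sums were higher in every treated library, this put it farthest from the treated group. Nuclear members took 0.293%, 0.244% and 0.291% of all gene counts untreated and 0.233%, 0.238% and 0.250% treated. Untreated replicate 2 lay between the second and the third treated library. When counts of mitochondrial DNA were left out of the total, the shares were 0.302%, 0.251% and 0.300% untreated and 0.241%, 0.253% and 0.256% treated, so that untreated replicate 2 was below 5-HT treated replicates 2 and 3. Without untreated replicate 2, 7 nuclear members were called lower (Cox5b, Cox6c, Cox7b, Ndufa8, Ndufc2, Sdha and Uqcrfs1), and the median was -0.28. That fit called 675 of 16974 genes lower, where the fit to all libraries called 531 of 16641. Without any other single library no nuclear member was called, and the nuclear median lay between -0.15 and -0.26.

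**Figure D4:**
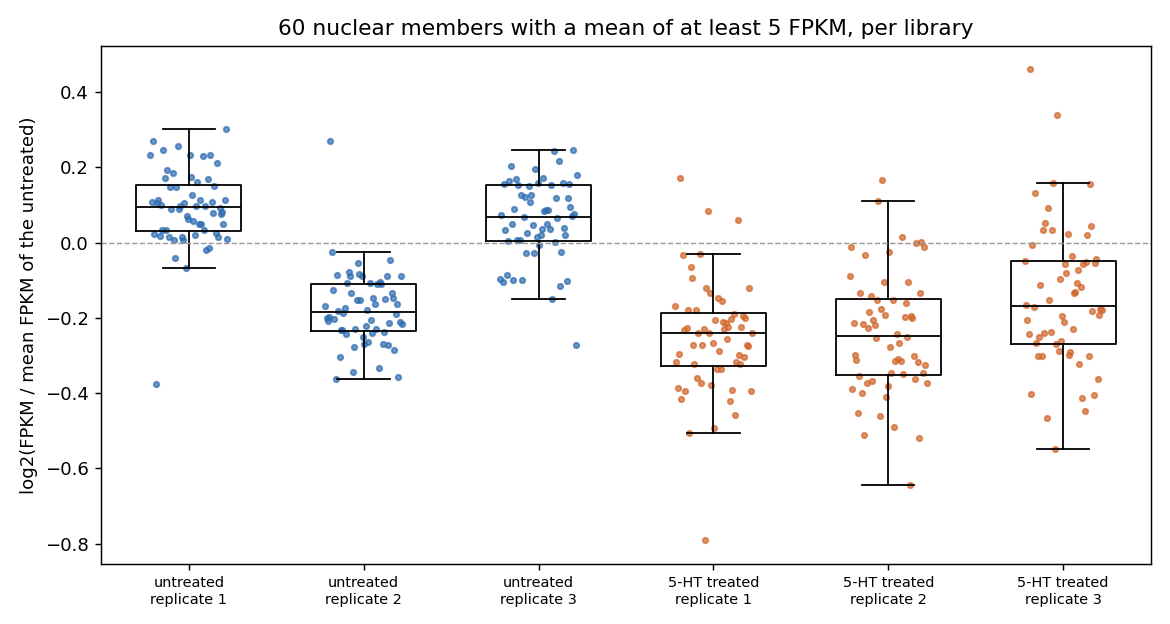
The log2 ratio of FPKM to the mean of the untreated libraries for the 60 tested nuclear members with a mean of at least 5 FPKM, 1 point per gene; boxes give the quartiles and whiskers reach the last point within 1.5 box heights. Untreated replicates 1 and 3 have medians of 0.09 and 0.07 and untreated replicate 2 of -0.18, next to -0.24, -0.25 and -0.17 in the 5-HT treated libraries.

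Mitochondrially encoded members took 2.70%, 2.495% and 2.97% of all gene counts untreated (mean 2.72% ± 0.238) and 3.23%, 5.47% and 2.10% treated (mean 3.60% ± 1.72). The treated libraries enclosed the untreated range. The count ratio of mitochondrially encoded to nuclear members was 9.20, 10.2 and 10.2 untreated and 13.9, 22.9 and 8.38 treated. It was highest in 5-HT treated replicate 2 and lowest in 5-HT treated replicate 3, and the untreated libraries lay close together. The nuclear median log2 change minus the mitochondrial one was -0.64, and it was -0.23 without 5-HT treated replicate 2 and -0.95 without 5-HT treated replicate 3. The difference in the mitochondrial share, 0.876 percentage points higher with 5-HT, became -0.0592 points without 5-HT treated replicate 2.

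**Figure D5:**
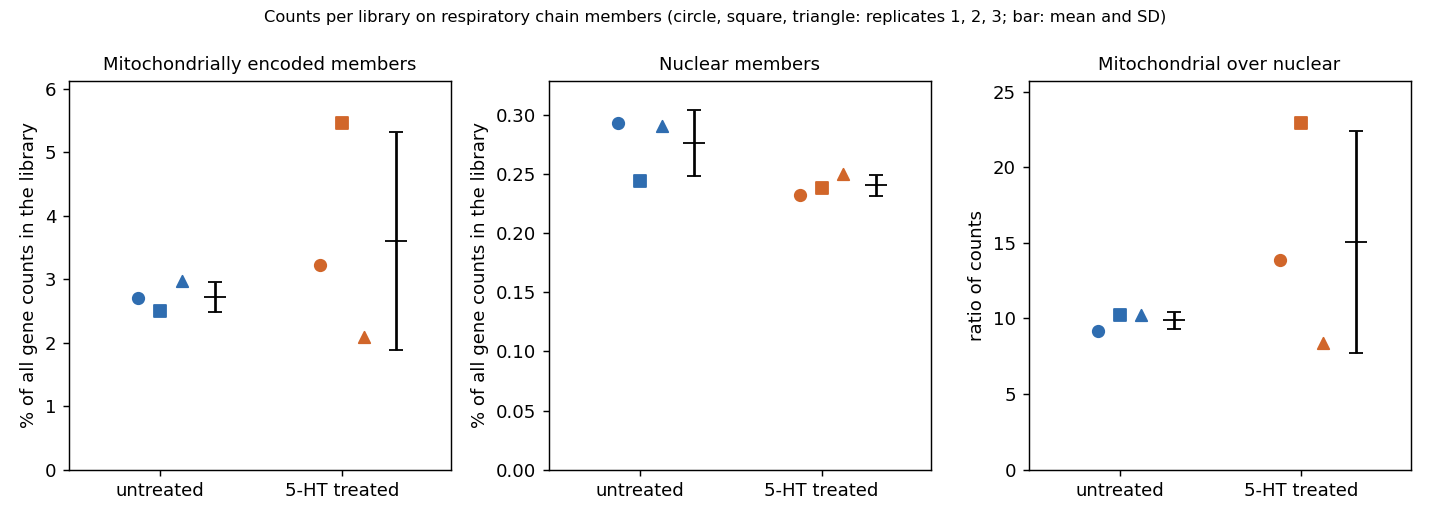
The percentage of all gene counts on the mitochondrially encoded members (left) and on the nuclear members (middle), and the ratio of the former to the latter (right), in each library with the group mean and SD (n = 3 each). 5-HT treated replicate 2 stands at 5.47% and a ratio of 22.9, while the other 5 libraries lie between 2.10% and 3.23% and between 8.38 and 13.9.

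Other cell types differed between the libraries in the same comparison. For the counts that follow, 4.55% of all genes tested were called higher and 3.19% lower. The treated libraries lay wholly above the untreated ones in 15.4% of all genes tested and wholly below in 14.3%. The 12 Kupffer cell markers were detected in every library and summed to 1439, 1006 and 1190 FPKM untreated and to 1608 to 1903 FPKM treated. Of the 12, 11 were above 0 on the log2 scale (median 0.56) and 3 were called higher, Adgre1, Cd163 and Marco. The 10 liver endothelial markers summed to more than these, 3675 to 3693 FPKM untreated and 2991 to 4052 FPKM treated, so RNA of endothelial cells was also present in libraries labelled as Kupffer cells. The endothelial sums overlapped, while single markers moved in opposite directions: Lyve1, a hyaluronan receptor, was called higher (log2 1.79, edgeR adjusted p = 0.00138), and Kdr (-0.78), Ptprb (-0.82) and Oit3 (-0.74) were called lower. Of the 10, 5 were above 0 on the log2 scale and 5 below. The treated libraries lay wholly above the untreated ones in 3 (Lyve1, Cdh5 and Pecam1) and wholly below in 5. Without Lyve1, a gene set aside after its values were seen, the other 9 summed to 3420 to 3445 FPKM untreated and 2197 to 3030 FPKM treated, with no overlap. That sum does not describe each marker, as Cdh5 (log2 0.33) and Pecam1 (log2 0.26) remained in it. The 10 neutrophil markers summed to 176, 143 and 173 FPKM untreated and to 484, 928 and 354 FPKM treated. The order of the treated libraries was the same as for the mitochondrial share. It was also that of the summed stellate cell, erythroid, B and plasma cell, and T and NK cell markers. Of the 8 neutrophil markers tested, 6 were called higher and 1, Ngp, was below 0 (log2 -0.81). Camp, too low to be tested, was lower in every treated library than in any untreated one. Only Ly6g was at 0 in any library, untreated replicate 1. Hepatocyte markers summed to 1241, 808 and 1289 FPKM untreated and 1819, 1576 and 587 FPKM treated, so that 5-HT treated replicate 3, lowest in mitochondrial messages, was also lowest here. Alb alone gave 1240 and 1080 FPKM in 5-HT treated replicates 1 and 2. Of the 10 hepatocyte markers, 4 were above 0 on the log2 scale and 6 below (median -0.13). The treated libraries lay wholly below the untreated ones in 2, Tat and Cyp2e1. No hepatocyte marker was called. Stellate cell markers summed to 174, 120 and 176 FPKM untreated and to 49.3 to 128 FPKM treated. All 10 were below 0 on the log2 scale (median -1.03), and Reln was called lower (log2 -1.18, edgeR adjusted p = 0.0124). Erythroid markers summed to 125, 16.03 and 138 FPKM untreated and 22.4 to 130 FPKM treated, B and plasma cell markers to 93.8 to 160 and 92.5 to 358, and T and NK cell markers to 122, 39.5 and 120 FPKM untreated and 40.8 to 77.9 FPKM treated. The summed levels overlapped in these 4 lists; Sdc1 of the B and plasma cell list and Slc4a1 of the erythroid list, at 0.270 FPKM or less, were called higher, and no T or NK cell marker was called. The part of these cells in the respiratory chain values was not tested.

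Comparisons of level between nuclear members depend on the length used. The deposited FPKM divides by the length of all annotated exons, which for Ndufb2 is 5628 bases where its GENCODE M21 coding transcript has 455, and for Cox6c 3567 where it has 503. On transcript length, Cox6c moved from rank 43 to rank 4 and Ndufb2 from rank 60 to rank 50 of 63 members, and Cox6b1 moved from rank 1 to rank 5 behind Cox4i1. The quartile ratio of the mean levels was 2.81 on deposited length and 2.21 on transcript length. Against their nuclear partners, mt-Co1 had 126 times the FPKM of Cox4i1 on deposited length and 60.6 times on transcript length, both on means over the 6 libraries. On deposited length the ratio ranged from 85.9 in 5-HT treated replicate 3 to 223 in 5-HT treated replicate 2. Of the 69 nuclear members, 30 share at least one 50-base window with another annotated gene and 7 share over 50% of them, among them Cox7c and Ndufa12, so their single values are uncertain.

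Genes around the chain gave few calls. All 18 nuclear genes of ATP synthase, which uses the gradient, were below 0 with a median of -0.25; none was called, and in 10 (55.6%, against 14.3% of all genes tested) all treated libraries lay below all untreated ones. Its catalytic subunit gene Atp5b stood at 131, 109 and 126 FPKM untreated and 104, 109 and 104 FPKM treated (log2 -0.20, edgeR adjusted p = 0.300). Of 18 genes of electron carriers and enzymes that feed them, 15 were below 0 and none was called. The treated libraries lay below the untreated ones without overlap in 8 of the 18 (44.4%) and above them in 1, Gpd2, an enzyme of the glycerol phosphate shuttle. The lowest values belonged to the electron transfer flavoprotein genes Etfb (log2 -0.71, edgeR adjusted p = 0.0769), Etfa (-0.58, 0.0611) and Etfdh (-0.56, 0.0601), which take electrons from fatty acid oxidation. None of 45 tested assembly factors of the chain was called, with 29 below 0 and a median of -0.13. None of 20 genes of mitochondrial membranes, import and chaperones was called, with 11 below 0 and a median of -0.07.

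Of 21 genes of pyruvate entry and the citric acid cycle, 17 were below 0 and 1 was called lower, where 3.19% of all genes were. The called gene was Pdhb, a subunit of pyruvate dehydrogenase, at 23.5, 21.6 and 23.4 FPKM untreated and 18.4, 16.9 and 18.0 FPKM treated (log2 -0.36, edgeR adjusted p = 0.0499967). It was no longer called in 8 of 18 alternatives. Of 25 genes that maintain mitochondrial DNA and RNA, 11 were below 0 and 1 was called lower, again beside 3.19% of all genes. Hsd17b10, a subunit of the nuclease that cuts the 5′ ends of mitochondrial tRNAs, went from 25.03, 24.97 and 26.2 to 19.1, 20.2 and 17.7 FPKM (log2 -0.41, edgeR adjusted p = 0.0424), and it too was no longer called in 8 of 18. Tfam, which packs mitochondrial DNA and starts its transcription, was at 6.63, 6.41 and 7.29 untreated and 7.46, 7.44 and 7.55 FPKM treated (log2 0.15, edgeR adjusted p = 0.401). Lrpprc, which stabilises mitochondrial messages, had a log2 change of -0.49 (edgeR adjusted p = 0.0626). Of 77 mitochondrial ribosomal protein genes, 46 were below 0 and 1, Mrpl33, was called higher, where 4.55% of all genes were. The call of Mrpl33 (log2 0.47, edgeR adjusted p = 0.0415) fell away in 11 of 18. The mitochondrial ribosomal RNAs mt-Rnr1 and mt-Rnr2 were not called (log2 0.96 and 0.49, edgeR adjusted p = 0.209 and 0.445), and they too were highest in 5-HT treated replicate 2.

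Among 17 regulators of respiratory genes, 1 was called, where 7.74% of all genes were called in either direction. Myc, a transcription factor of growth that also acts on mitochondrial genes, stood at 9.55, 9.97 and 10.5 FPKM untreated and at 30.3, 24.8 and 25.5 FPKM treated. Every treated library was far above the untreated ones (log2 1.43, edgeR adjusted p = 0.00131), and the call was kept in 18 of 18 alternative fits. Nrf1, whose factor binds many respiratory promoters, was at 2.93, 2.99 and 2.81 untreated and 3.36, 3.49 and 3.11 FPKM treated (log2 0.20, edgeR adjusted p = 0.220). Gabpa, the DNA-binding part of the ETS factor NRF2, had a log2 change of 0.03 and Yy1 of -0.02. The coactivator genes Ppargc1a and Ppargc1b were at or below 1.39 FPKM in every library and had log2 changes of -0.53 and -0.40 (edgeR adjusted p = 0.309 and 0.343).

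The promoters of the nuclear members were searched for the letters that these factors are known to bind. RefSeq windows from 250 bases before to 50 bases after the start were matched for 52 of the 69 nuclear members (54 windows) and compared with all 32851 windows (GRCm38.p6), on both strands. The NRF1 motif GCATGCGC was in 12.96% of member windows (7 of 54) and 2.71% of all windows. The ETS motif CCGGAAG was in 20.37% (11 of 54) and 8.86%. The YY1 motif AAGATGGC was in 12.96% (7 of 54) and 2.75%, and the SP1 motif GGGCGG in 40.74% (22 of 54) and 35.66%. Shown are a window with the NRF1 motif (Uqcrc1, a core protein of complex III, chr9:108936398-108936697, plus strand), one with the ETS motif read on the other strand (Cox6b1, chr7:30626065-30626364, minus strand) and that of the member of smallest p, in which none of the 4 was found (Ndufc2, chr7:97399753-97400052, plus strand). Capitals mark the motif, in Uqcrc1 together with its overlapping match on the other strand; the searched motifs do not otherwise overlap there.
Uqcrc1: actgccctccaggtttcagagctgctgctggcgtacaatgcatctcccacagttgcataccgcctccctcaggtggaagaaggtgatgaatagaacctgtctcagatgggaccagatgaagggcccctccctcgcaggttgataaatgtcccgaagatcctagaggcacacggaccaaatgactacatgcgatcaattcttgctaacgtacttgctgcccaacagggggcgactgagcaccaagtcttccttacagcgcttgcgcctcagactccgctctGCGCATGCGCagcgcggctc
Cox6b1: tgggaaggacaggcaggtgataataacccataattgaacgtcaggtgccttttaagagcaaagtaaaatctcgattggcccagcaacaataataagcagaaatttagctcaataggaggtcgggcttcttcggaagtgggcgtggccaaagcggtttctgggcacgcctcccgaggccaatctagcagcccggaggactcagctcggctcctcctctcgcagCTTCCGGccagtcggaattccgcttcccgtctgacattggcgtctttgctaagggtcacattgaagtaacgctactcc
Ndufc2: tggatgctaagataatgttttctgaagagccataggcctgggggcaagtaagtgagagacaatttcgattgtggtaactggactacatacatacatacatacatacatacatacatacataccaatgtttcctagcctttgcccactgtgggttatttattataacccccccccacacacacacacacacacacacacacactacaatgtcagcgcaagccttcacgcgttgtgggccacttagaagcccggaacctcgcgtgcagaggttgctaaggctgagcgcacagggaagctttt
Uqcrc1 had 25.8, 22.5 and 24.2 FPKM untreated and 18.0, 21.1 and 19.3 FPKM treated. The groups did not overlap (log2 -0.31, SE 0.10, edgeR adjusted p = 0.115). A match describes letters in a window and is not a measured binding site.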

How the data were processed

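Bulk mRNA sequencing of Kupffer cells was compared between 3 untreated and 3 5-HT treated libraries, grouped by the sample titles. Raw read counts per gene were deposited by the authors, per the file headers; mm10, HISAT2 2.2.1 and featureCounts 2.0.1 are listed, without their roles, per the submitters' processing notes. The authors deposited FPKM beside each count: 100% of the values of at least 1 were matched to 0.5%, or to their printed decimals, when recomputed from count, deposited exonic length and library total. Positions are those of GENCODE M21, matched by identifier (52073 of 56691, all 82 members), because the deposited coordinates differ from it.

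Counts were tested in R 4.3.3 with edgeR 4.0.16 (TMM scaling, filterByExpr, two-sided quasi-likelihood test) on 16641 genes, with Benjamini-Hochberg adjustment over all of them and a threshold of 0.05. Fold changes are treated over untreated. The test script was checked on simulated data. Alternatives used DESeq2 1.42.0, limma 3.58.1 on log2(FPKM + 0.1, 1 or 5), voom with quality weights, other scalings and filters, a replicate block, other member rules and each library left out. Of nuclear members, 17 had no promoter window. Protein sequences were not used here.

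Members and lists were chosen with earlier results of these data known. Named genes were taken by rule: every mitochondrially encoded member, nuclear members past the threshold, the most abundant of each complex, isoform partners, the 3 largest and 3 smallest changes at a mean of at least 5 FPKM, the rows next to the level floor, and up to 3 called genes per other list. Other genes were named after their values were seen. The values of 1 member are not reported here, although the counts and medians include it.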

Additional observations from a re-analysis of the deposited data

How the results depend on the processing

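Over the alternatives run, the nuclear median stayed below 0 (-0.15 to -0.28) and the mitochondrial median above 0 (0.05 to 0.69). The number of nuclear members called lower, 0 by edgeR, was 2 with DESeq2, 2 with limma at each pseudocount (Ndufc2 and Ndufa13), 10 with voom and quality weights, and 1 (Ndufc2) with library totals only, at a minimum mean of 1 FPKM and with no filter. It ranged from 0 to 7 when each library was left out. The fits also differed in calls over all genes. Against 531 of 16641 genes called lower in the main fit, voom with quality weights called 1253 of 16641 and DESeq2 955 of 16948. The limma fits called 466 to 481 of 16641 lower, and library totals only called 575 of 16641. A minimum mean of 1 FPKM gave 599 of 13518 and no filter 715 of 31731. Mitochondrially encoded members called higher numbered 1 with DESeq2 and 0 to 2 when each library was left out. None of the fits called a nuclear member higher or a mitochondrially encoded member lower. The difference in the mitochondrial share ranged from -0.0592 to 1.63 percentage points when each library was left out. Leaving out pseudogene rows, chosen after seeing the data, gave a nuclear median of -0.21 and no call. Some changes changed direction, and not only those near 0, as mt-Co1 stood at 0.30 and mt-Nd3 at 0.41 in the main fit. That of Ndufc1 was -0.13 with voom weights. With each library left out, log2 changes ran from -0.16 to 0.0652 for Cox5a, -0.10 to 0.14 for Ndufc1, -0.12 to 0.0660 for Cox6a1, -0.94 to 0.11 for Cox6b2, -0.0469 to 0.33 for Ndufa12-ps, -0.21 to 0.41 for mt-Nd1, -0.000200 to 0.87 for mt-Nd2, -0.10 to 0.53 for mt-Co1, -0.0378 to 0.54 for mt-Co2, -0.10 to 0.87 for mt-Nd3 and -0.10 to 0.69 for mt-Nd4l. The causes were not tested.

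The labels do not tie equal replicate numbers to a shared animal or day, and the deviations of equal-numbered libraries correlated by 0.07, 0.07 and -0.01 over genes, so the numbers were not treated as pairs. With a replicate block, 542 genes were called higher and 354 lower, none of the members was called (smallest adjusted p 0.0977), and the medians were -0.20 for nuclear and 0.36 for mitochondrially encoded members. Over all genes, leaving out untreated replicate 1 gave 218 higher and 111 lower calls, leaving out untreated replicate 3 gave 220 and 116, and leaving out 5-HT treated replicate 1 gave 338 and 222, so calls at the margin depend on single libraries. Low counts limit Cox6a2, Cox7a1, Cox6b2, mt-Nd3 and mt-Nd4l.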
